A study of Mus musculus with 8 samples.

Results

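Toll-like receptors detect molecules of microbes and of damaged cells, and 10 genes of this system were followed in microglia sorted from mouse optic nerve. They were 8 receptors (Tlr1, Tlr2, Tlr3, Tlr4, Tlr6, Tlr7, Tlr9 and Tlr13), the co-receptor Cd14 and the adaptor Myd88, taken by gene symbol from a table of 37447 genes. Each symbol had 1 row, and all 10 were among the 17753 genes tested. FFC mice carried Nf1 flox/flox alleles together with GFAP-Cre, Cre recombinase under the promoter of the astrocyte gene Gfap. FF mice carried Nf1 flox/flox alleles without Cre. All were C57BL/6 mice at 3 months of age, with 2 females and 2 males per genotype. By the series text the FFC mice lack Nf1 in astrocytes, so the sorted microglia were compared by the genotype of their surroundings. Libraries of the same genotype are biological replicates by their labels. The sources used here do not say if a library stands for 1 animal or for several, and p-values measure only the spread between these libraries.

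Toll-like receptors pair through their outer or luminal domains when they bind a ligand and recruit adaptors to their cytoplasmic domains. Tlr1, Tlr2, Tlr4 and Tlr6 act mainly at the cell surface on bacterial lipids, whereas Tlr3, Tlr7, Tlr9 and Tlr13 sense nucleic acids in endosomes. Myd88 serves nearly all of them, Tlr3 instead uses Ticam1, and both routes lead to NF-kB and interferon regulatory factors. In the nervous system microglia are the main cells to express these receptors.

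Values are FPKM, a fragment density per transcript length and sequencing depth, so levels can be set side by side between genes. The deposited values hold no counts and the number of fragments per library is unknown, but ratios among the lowest values gave relative depths of 0.380 to 0.616 in FFC and 0.208 to 1.000 in FF, with FF 1 set to 1. FF 2 was the shallowest. FF 2 and FF 4 stood apart in another measure, the FPKM held by genes of the chemosensory receptor families Olfr and Vmn, which made up 0.708% to 1.57% of the total in FFC, 4.23% and 3.50% in FF 2 and FF 4, and 1.62% and 1.47% in FF 1 and FF 3. Of the microglial markers, the growth factor receptor Csf1r had 607, 954, 875 and 1062 FPKM in FFC 1 to FFC 4, against 750, 379, 1017 and 551 FPKM in FF 1 to FF 4. The surface protein Tmem119 had 251, 355, 377 and 513 FPKM in FFC, against 278, 93.7, 350 and 203 FPKM in FF. Fcrls was the lowest of the 10 markers in most libraries, at 12.4, 21.1, 20.3 and 78.2 FPKM in FFC, against 95.9, 27.3, 48.2 and 42.4 FPKM in FF (log2 difference -0.89), and the difference of P2ry12 was -0.06. Nf1 had 56.2, 47.8, 47.7 and 98.3 FPKM in FFC, against 27.4, 60.8, 65.2 and 25.5 FPKM in FF. Since the deletion lies in astrocytes, these Nf1 values check no label. The Y-linked genes Kdm5d and Uty were at 2.77 FPKM or more in the 4 libraries labelled male and at 0.219 FPKM or less in the 4 labelled female, while FF 1, labelled female, had 8.89 FPKM of the Y-linked gene Ddx3y, 1.92 FPKM of the Y-linked gene Eif2s3y (0.282 FPKM or less in the other females) and 1.07 FPKM of Xist, the RNA of the inactive X chromosome, which was at 1.36 to 14.6 FPKM in the other females and at 0.205 FPKM or less in the males.

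None of the 10 genes passed the test between the genotypes, although 9 of them had a higher mean in FFC microglia. Tlr3 and Tlr13 were the 2 whose 4 FFC libraries all lay above the 4 FF libraries. The median of the 10 differences was 0.61 on the log2(FPKM + 1) scale, against 0.19 over all tested genes and 0.41 over the 8473 genes within the members' range of mean FPKM. Differences are given on this scale as FFC minus FF with their SE; the pseudocount of 1 makes them understate the change of low genes. With limma, 0 of 10 members passed at an adjusted p of 0.05 (smallest adjusted p = 0.729), and the background was 0.0% of 17753 genes. At an unadjusted limma p under 0.05 there were 2 members, Tlr3 and Tlr13, where 6.46% of all genes passed (4.52% higher and 1.94% lower in FFC). Complete separation of the libraries upward was seen in 2 of 10 members, against 3.05% of all genes and 4.12% of those within the members' range, and separation downward in 0 of 10, against 1.29% of all genes. A higher FFC mean was common at these levels as well, at 56.7% of all genes and 65.6% of genes within that range. In bulk RNA of sorted cells, a larger share of cells that express a gene and more RNA per cell cannot be told apart.

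**Figure D1:**
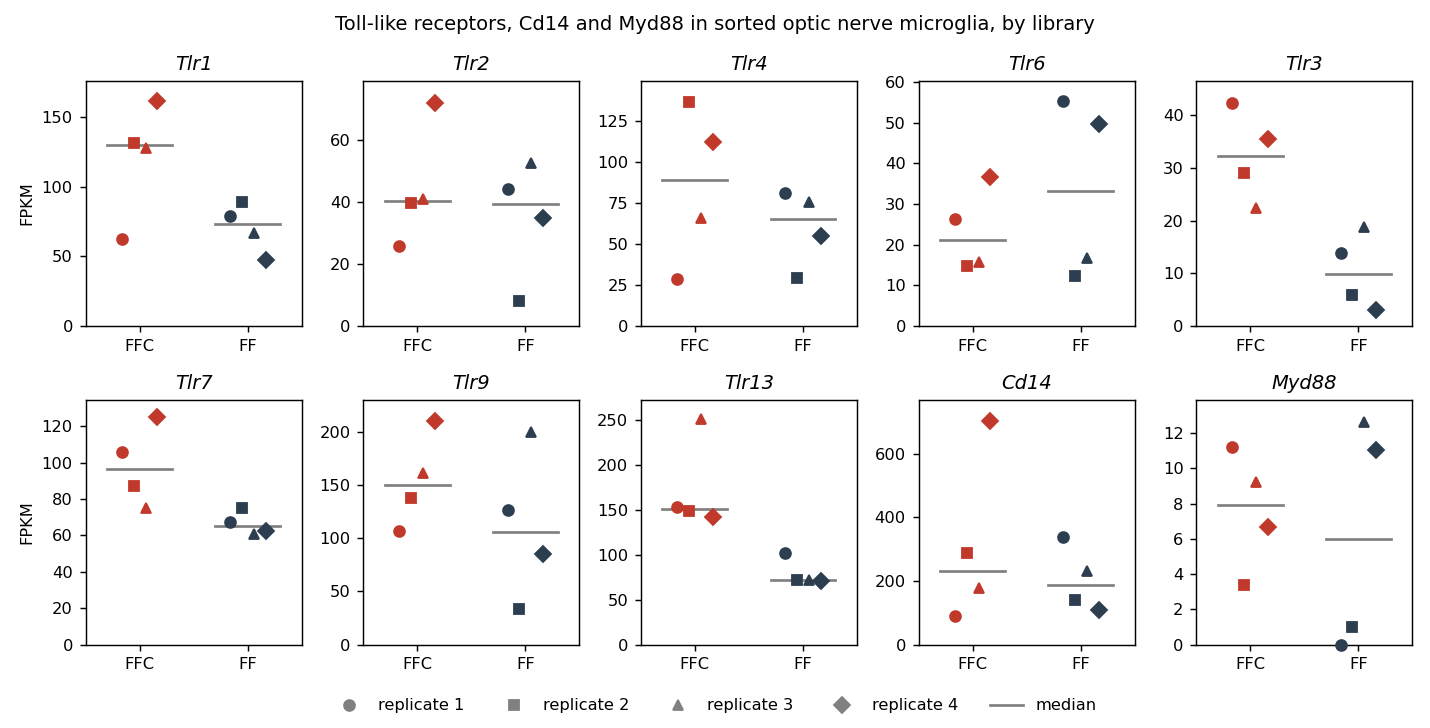
FPKM of the 10 genes in each library (vertical axes, linear and starting at 0), with FFC left of FF, 1 symbol per replicate number and a grey line at the median of 4. Tlr3 and Tlr13 are the panels with no overlap, and Cd14 ranges from 88.9 to 704 FPKM within FFC.

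The 2 genes without overlap were both nucleic acid receptors of the endosome. Tlr3, the receptor for double-stranded RNA (ENSMUSG00000031639, mm9 chromosome 8, 46481019 to 46495962), had 42.3, 29.03, 22.4 and 35.5 FPKM in FFC 1 to FFC 4, against 13.8, 5.87, 18.8 and 3.10 FPKM in FF 1 to FF 4. The lowest FFC library was above the highest FF library, and FF 2 and FF 4 were the lowest of all 8. The means were 32.3 ± 8.56 FPKM in FFC and 10.4 ± 7.22 FPKM in FF (SD, n = 4 each), a log2 difference of 1.77 ± 0.71 (limma unadjusted p = 0.0275, adjusted p = 0.729). An exact two-sided permutation test gave p = 0.0286, the smallest that 4 against 4 libraries allow. Any gene without overlap gives this p, so for Tlr3 and Tlr13 it only restates the separation. Without FF 2 and FF 4 the difference was 0.92 ± 0.45 (limma adjusted p = 0.797), and with the chemosensory share as a covariate it was 0.85 (limma adjusted p = 0.903), both settings chosen after seeing the data.

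Tlr13, which in mice binds a conserved stretch of bacterial ribosomal RNA (ENSMUSG00000033777, mm9 chromosome X, 103338543 to 103355832), had 154, 149, 251 and 142 FPKM in FFC, against 102, 71.9, 72.4 and 71.2 FPKM in FF. Within each genotype 3 libraries lay close together and 1 was higher, FFC 3 and FF 1, and the groups did not overlap. The means were 174 ± 51.8 FPKM in FFC and 79.4 ± 15.2 FPKM in FF (SD, n = 4 each), a log2 difference of 1.10 ± 0.50 (limma unadjusted p = 0.0461, adjusted p = 0.758; exact two-sided permutation p = 0.0286). Without FF 2 and FF 4 it was 0.97 ± 0.39 (limma adjusted p = 0.797).

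The promoters of these 2 genes are shown because they are the members whose libraries separated. Tlr4 and Tlr7 had no entry among the RefSeq promoters at hand, and Cd14 was left out of the motif search. RefSeq promoters (GRCm38.p6, 250 bases before to 50 after the start) of the other 7 members were used, with 9 promoters in all. They were searched on both strands for an interferon response element (GAAANNGAAA, in 3.44% of 32851 promoters of that length), a STAT element (TTCNNNGAA, 8.3%), an NF-kB element (GGGANNTTCC, 1.47%) and a PU.1 core (GAGGAA, 28.3%). PU.1 is a transcription factor of macrophage identity. Capitals mark the matches, an NF-kB element at -211 to -202 in Tlr3 (chr8:45410331-45410630, minus strand) and a PU.1 core at -83 to -78 in Tlr13 (chrX:106143025-106143324, plus strand).
Tlr3 promoter: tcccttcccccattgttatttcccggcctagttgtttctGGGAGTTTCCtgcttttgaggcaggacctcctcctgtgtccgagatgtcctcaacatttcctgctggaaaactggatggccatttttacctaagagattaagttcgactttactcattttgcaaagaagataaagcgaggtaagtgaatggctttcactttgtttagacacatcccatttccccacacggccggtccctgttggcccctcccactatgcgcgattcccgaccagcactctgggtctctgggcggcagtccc
Tlr13 promoter: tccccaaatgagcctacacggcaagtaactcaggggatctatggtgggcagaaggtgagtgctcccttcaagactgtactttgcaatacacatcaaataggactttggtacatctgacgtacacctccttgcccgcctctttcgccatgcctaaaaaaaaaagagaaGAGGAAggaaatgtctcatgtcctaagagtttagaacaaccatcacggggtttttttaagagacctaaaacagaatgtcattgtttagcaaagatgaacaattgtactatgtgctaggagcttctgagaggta
Among the other promoters, which are not printed, Myd88 held an interferon response element at -40 to -31 that overlaps a STAT element at -46 to -38, and 1 of the 2 Tlr6 promoters held 2 overlapping interferon response elements between -116 and -101. The 2 Tlr1 promoters held a PU.1 core and a STAT element, and the second Tlr6 promoter held 2 STAT elements. Looser spellings were not searched, and in the spellings given the Tlr2 window held none of the 4, while Tlr9 held 2 PU.1 cores. These matches describe letters in a window and are no evidence of binding.

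Tlr7, the receptor for single-stranded RNA (ENSMUSG00000044583, mm9 chromosome X, 163742861 to 163768490), was the steadiest member, with an SD of 0.37 on the log2 scale over the 8 libraries. It had 106, 87.4, 75.06 and 125 FPKM in FFC, against 67.6, 75.08, 60.8 and 62.7 FPKM in FF. Only the pair FFC 3 and FF 2 crossed, by less than 0.1 FPKM. The log2 difference was 0.54 ± 0.51 (limma adjusted p = 0.767; exact two-sided permutation p = 0.0571), and without FF 2 and FF 4 it was 0.58. Tlr9, which binds unmethylated CpG DNA (ENSMUSG00000045322, mm9 chromosome 9, 106124929 to 106129207), had 106, 138, 161 and 210 FPKM in FFC, against 126, 33.3, 199 and 85.5 FPKM in FF. Its range in FF was wider than in FFC and enclosed 3 of the 4 FFC values. The log2 difference was 0.69 ± 0.61 (limma adjusted p = 0.760) and turned to -0.09 without FF 2 and FF 4.

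Read against each other within a library, the endosomal receptors took 74.1%, 55.6%, 67.1% and 57.3% of the summed receptor FPKM in FFC, against 54.4%, 57.2%, 62.5% and 54.3% in FF. FFC 1 and FFC 3 were above all FF libraries, and FFC 2 and FFC 4 lay inside the FF range. The ratio of Tlr3 to Tlr7, which no scaling of a library can alter, was 0.398, 0.332, 0.298 and 0.284 in FFC, against 0.204, 0.0782, 0.309 and 0.0495 in FF. Here FF 3 lay inside the FFC range, so Tlr3 relative to Tlr7 did not separate the genotypes. The ratio of Tlr13 to Tlr7 was 1.13 to 3.35 in FFC, against 0.958 to 1.51 in FF, and overlapped as well. The summed FPKM of the 8 receptors was 551, 726, 760 and 895 in FFC, against 570, 325, 563 and 410 in FF, with FFC 1 below FF 1 and FF 3.

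**Figure D2:**
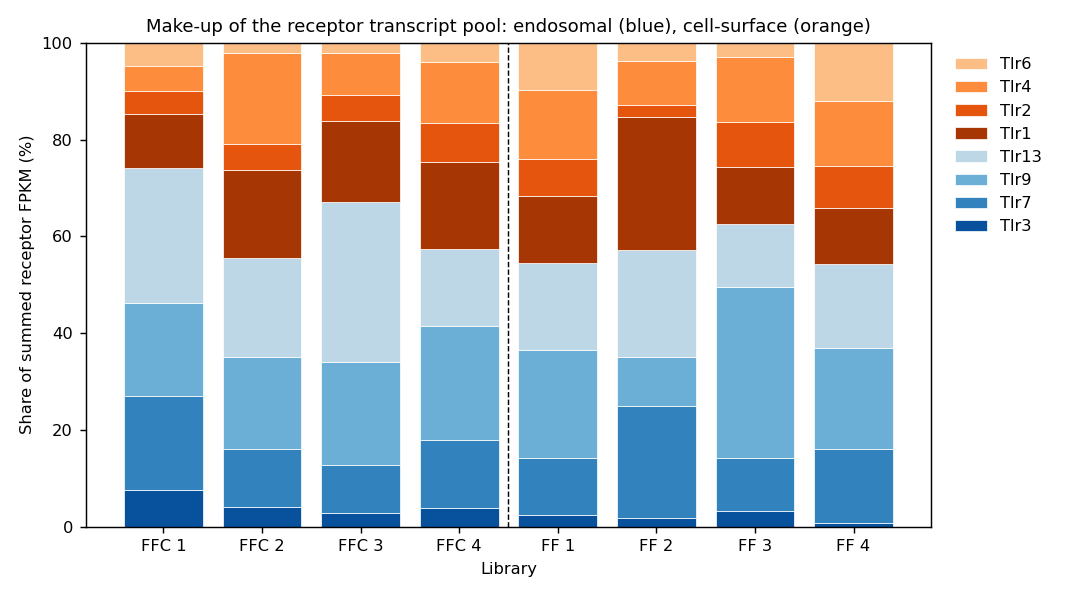
Share of each of the 8 receptors in their summed FPKM (vertical axis, percent) for the 4 FFC libraries, left of the dashed line, and the 4 FF libraries. Endosomal receptors (blue) fill 55.6% to 74.1% in FFC and 54.3% to 62.5% in FF, and Tlr3 is the smallest blue block in all 8 libraries.

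The cell-surface receptors overlapped between the genotypes in all 4 cases. Tlr4, the receptor for lipopolysaccharide (ENSMUSG00000039005, mm9 chromosome 4, 66488618 to 66591318), had 28.8, 137, 65.6 and 112 FPKM in FFC, against 81.1, 29.5, 75.4 and 55.0 FPKM in FF. The lowest and the highest value of all 8 libraries were both from FFC. The log2 difference was 0.38 ± 0.65 (limma adjusted p = 0.879) and was -0.09 without FF 2 and FF 4. Tlr2, which binds bacterial lipoproteins together with Tlr1 or Tlr6 (ENSMUSG00000027995, mm9 chromosome 3, 83640195 to 83645689), had 25.6, 39.6, 40.8 and 72.0 FPKM in FFC, against 44.0, 8.17, 52.4 and 34.9 FPKM in FF. FF 2 alone lay far below the rest. With all libraries the log2 difference was 0.52 ± 0.71 (limma adjusted p = 0.841), and without FF 2 it was -0.05.

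The partners of Tlr2 differed from each other in direction. Tlr1, the partner for triacylated lipoproteins (ENSMUSG00000044827, mm9 chromosome 5, 65316050 to 65324000), had 62.2, 131, 128 and 162 FPKM in FFC, against 79.1, 89.1, 66.6 and 47.7 FPKM in FF. FFC 1 was the 1 FFC library inside the FF range, and the log2 difference was 0.72 ± 0.55 (limma adjusted p = 0.759; exact two-sided permutation p = 0.114). Tlr6 (ENSMUSG00000051498, mm9 chromosome 5, 65344345 to 65351287), the partner for diacylated lipoproteins, lies beside Tlr1 on the chromosome and was the 1 member with a lower FFC mean. It had 26.3, 14.8, 15.8 and 36.6 FPKM in FFC, against 55.2, 12.4, 16.6 and 49.7 FPKM in FF. The log2 difference was -0.33 ± 0.71 (limma adjusted p = 0.907), and without FF 1 it was -0.0014. Both genotypes split into a low and a high pair of libraries.

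That split of Tlr6 followed the sex given in the labels. The 4 male libraries had 14.9 ± 1.84 FPKM (12.4 to 16.6) and the 4 female libraries 41.9 ± 13.0 FPKM (26.3 to 55.2; SD, n = 4 each), with no overlap in either genotype. The log2 difference male minus female was -1.39 ± 0.63 with genotype as a covariate (limma unadjusted p = 0.0480, adjusted p = 0.953), and an exact two-sided permutation test gave 0.0286. It did not pass the test over all genes, and was singled out after its values were seen; 0.884% of tested genes had all male libraries below all female ones, and 1.55% (0 members) had them above. Omitting 1 library at a time left it between -1.56 and -1.22, and it was -1.27 without FF 1, which had the highest Tlr6 value and the mixed sex markers given above. Since the sexes did not overlap, the negative sign in each omission was fixed in advance. For the same reason the exact permutation p only restates the separation. Tlr1 did not share the pattern, at 104 ± 31.2 FPKM in males and 87.7 ± 51.0 FPKM in females (SD, n = 4 each; limma adjusted p = 0.980). The X-linked members overlapped between the sexes, with Tlr7 at 74.6 ± 10.9 FPKM in males and 90.4 ± 30.2 FPKM in females, and Tlr13 at 136 ± 84.9 FPKM in males and 117 ± 37.8 FPKM in females (SD, n = 4 each). With limma, 0 of 10 members were called between the sexes (0.0% of all genes; 3.99% at an unadjusted p under 0.05, and 1 member, Tlr6), and 0 for the interaction of genotype and sex (0.0% of all genes; 3.19% unadjusted, and 0 members).

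**Figure D3:**
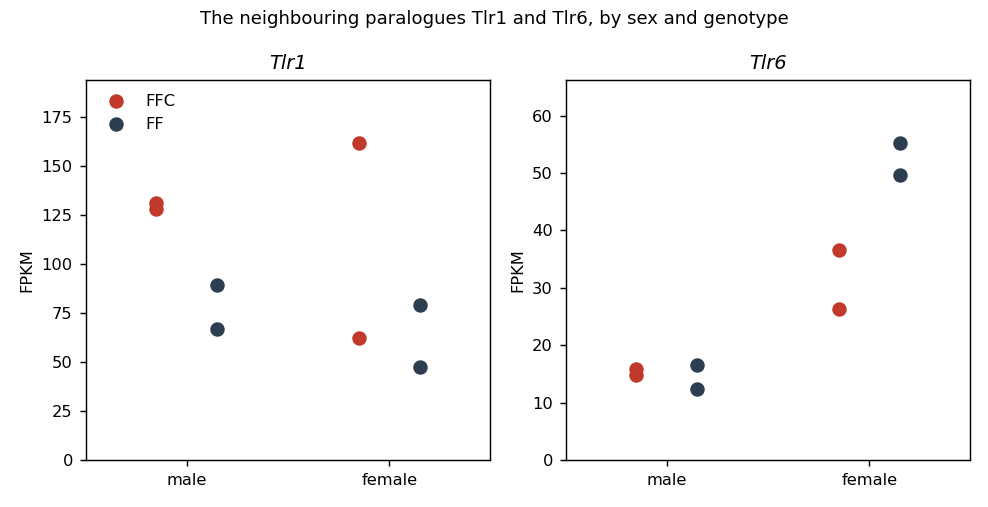
FPKM of Tlr1 (left panel) and Tlr6 (right panel) in male and female libraries, with FFC points left of FF points and 2 libraries per sex and genotype. The Tlr6 values of males lie at 12.4 to 16.6 and those of females at 26.3 to 55.2, while those of Tlr1 overlap.

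Tlr1 and Tlr6 are close relatives, and the division of fragments between them is uncertain. In the GENCODE M21 transcripts (GRCm38), 19.4% of all 50-base words of the Tlr1 coding sequence were also in that of Tlr6, and 11.3% of the 100-base words. Among the receptors compared no other pair shared a run of more than 16 bases. The longest run common to both is shown because fragments inside it cannot be assigned to 1 gene by their letters. It spans 229 bases, coding positions 1468 to 1696 of Tlr1 and 1507 to 1735 of Tlr6, counted from the first base of the start codon, and no letters are capitalised.
Tlr1 and Tlr6 shared run: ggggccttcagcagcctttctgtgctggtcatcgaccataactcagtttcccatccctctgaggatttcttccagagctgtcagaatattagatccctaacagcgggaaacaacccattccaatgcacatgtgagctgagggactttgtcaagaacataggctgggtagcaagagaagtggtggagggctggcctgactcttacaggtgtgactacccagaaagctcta
The ratio of Tlr1 to Tlr6 was 2.36, 8.88, 8.07 and 4.42 in FFC, against 1.43, 7.18, 4.01 and 0.959 in FF. It was lowest in the female libraries of each genotype. The sources used here do not say how shared fragments were divided.

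Cd14, the protein that hands lipopolysaccharide to Tlr4 (ENSMUSG00000051439, mm9 chromosome 18, 36884728 to 36886390), was the most abundant member, at a mean of 314 ± 272 FPKM in FFC and 205 ± 103 FPKM in FF (SD, n = 4 each). Its values were 88.9, 287, 178 and 704 FPKM in FFC, against 338, 141, 232 and 108 FPKM in FF. FFC held both the lowest and the highest library. The log2 difference was 0.36 ± 0.65 (limma adjusted p = 0.889), and it was -0.17 without FFC 4 and -0.23 without FF 2 and FF 4. Myd88 (ENSMUSG00000032508, mm9 chromosome 9, 119245052 to 119250529) was the least abundant, at 11.2, 3.38, 9.21 and 6.67 FPKM in FFC, against 0, 0.969, 12.6 and 11.1 FPKM in FF. FF 1 is listed at 0 although it was the deepest library. FF 3 was above all FFC libraries and FF 4 just under the highest of them. The log2 difference of 0.92 ± 0.97 (limma adjusted p = 0.788) was 0.23 without FF 1. From base 119248794 on, the Myd88 locus overlaps Acaa1a, a gene of peroxisomal fatty acid breakdown, which had 14.7, 11.1, 35.7 and 28.7 FPKM in FFC, against 8.41, 4.16, 22.7 and 53.2 FPKM in FF. Without stated use of strand in the counting, fragments of the shared stretch cannot be told apart.

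**Figure D4:**
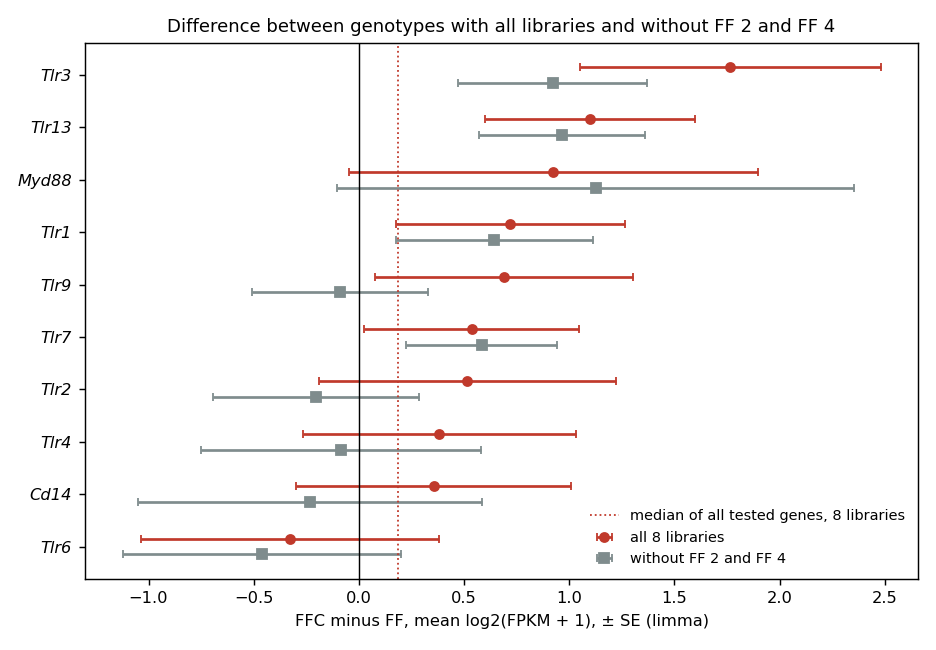
Difference of mean log2(FPKM + 1), FFC minus FF, for each gene (horizontal axis; bars are ± SE from limma) with all 8 libraries (red circles) and without FF 2 and FF 4 (grey squares). The dotted line is the median of all tested genes at 0.19, and Tlr2, Tlr4, Tlr9 and Cd14 cross 0 without those 2 libraries.

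Omitting FF 2 and FF 4 together brought the median of the 10 differences to 0.25, with 5 of 10 higher in FFC and a median of 0.07 over all genes. In that setting Tlr3, Tlr13 and Tlr7 had every FFC library above both remaining FF libraries, as did 7.22% of all genes. For Tlr3 and Tlr13 this was fixed by their separation over all 8 libraries. The mean log2(FPKM + 1) of the 10 genes was 5.67, 5.95, 5.95 and 6.50 in FFC, against 5.61, 4.68, 5.79 and 5.32 in FF. The 2 libraries at the bottom of that order were those with the largest chemosensory share. The titles also date the libraries to 2 months, with FFC 1, FF 1, FF 2 and FF 3 in month 11 and FFC 2, FFC 3, FFC 4 and FF 4 in month 12. The labels do not say what was done on those dates. In month 11 Tlr3 had 42.3 FPKM in FFC 1, against 5.87 to 18.8 FPKM in 3 FF libraries, and in month 12 it had 22.4 to 35.5 FPKM in 3 FFC libraries, against 3.10 FPKM in FF 4. Tlr13 had 154 FPKM in FFC 1, against 71.9 to 102 FPKM in 3 FF libraries of month 11, and 142 to 251 FPKM in 3 FFC libraries, against 71.2 FPKM in FF 4, in month 12. Both genes were higher in FFC within each month, where 1 genotype has a single library. That order was fixed by the full separation of their 8 libraries and is no separate check on the month. With month as a term the log2 difference was 2.31 for Tlr3 and 1.10 for Tlr13 (limma adjusted p = 0.560 and 0.651).

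Ordered by mean FPKM over all 8 libraries, Cd14 stood first (259), followed by Tlr9 (133), Tlr13 (127), Tlr1 (95.7), Tlr7 (82.5), Tlr4 (73.0), Tlr2 (39.7), Tlr6 (28.4), Tlr3 (21.4) and Myd88 (6.89). Only a few neighbours in that order kept it within libraries. Tlr4 was above Tlr2 in 8 of 8 libraries, and Cd14 above Tlr9 and Tlr3 above Myd88 in 7 of 8 each. Tlr13 was above Tlr1 and Tlr1 above Tlr7 in 6 of 8 each, and Tlr7 above Tlr4 in 5 of 8. Tlr9 was above Tlr13, Tlr2 above Tlr6 and Tlr6 above Tlr3 in 4 of 8 each, so these neighbours were not ordered beyond their spread. In FFC Tlr13 ranked above Tlr9 in 3 of 4 libraries, and in FF Tlr9 ranked above Tlr13 in 3 of 4. Cd14 had the highest mean in FFC too, but was above Tlr13 in 2 of 4 FFC libraries (FFC 2 and FFC 4). Likewise Tlr3 ranked above Tlr6 in 3 of 4 FFC libraries and Tlr6 above Tlr3 in 3 of 4 FF libraries. These changes of rank were not tested.

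Most of the other genes of the pathway had a higher mean in FFC, and none passed the test. Of 63 listed symbols (Acod1 and Irg1 are 1 gene), 60 had complete values and 56 were tested. With limma, 0 of 56 were called against 0.0% of all genes. A higher mean in FFC was seen in 48 and a lower one in 8, where 56.7% of all tested genes were higher. That share also stands beside the counts of the single lists below. The median log2 difference was 0.61, against 0.19 over all tested genes. Among genes within the members' range of mean FPKM, which does not hold every pathway gene, it was 0.41, with 65.6% higher in FFC. Of the 56, 5 (Sarm1, Tab1, Il6, Irg1 and Ifnb1) averaged under 1 FPKM in FF and entered the test only through their FFC values, which fixes their direction. Without these 5, 43 of 51 had a higher mean in FFC and the median was 0.53, a count made after seeing the data. All FFC libraries lay above all FF libraries in 5 of the 56 (Irak2, Chuk, Il1a, Tnf and Ccl4), against 3.05% of all genes. Il1a is named here after its values were seen. These pathway counts and medians rest on all 8 libraries and are not given without FF 2 and FF 4. In Ly86, Cd180, Lgmn and Hsp90b1, picked as examples, FF 2 and FF 4 were the lowest libraries, and FF 1 and FF 3 lay within the FFC range. Ticam1 went the other way, with 26.2 FPKM in FF 4 and 0.413 FPKM in FF 1.

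Receptors outside the 10 genes were mixed in direction. Of the 4 remaining receptors, 2 had a higher FFC mean and 2 a lower one (median 0.10). Tlr5, the flagellin receptor, had 13.2 ± 11.1 FPKM in FFC and 23.9 ± 10.9 FPKM in FF, and Tlr8, a relative of Tlr7, had 10.5 ± 5.11 FPKM in FFC and 17.3 ± 15.2 FPKM in FF (SD, n = 4 each). Tlr11 and Tlr12, which in mice detect profilin of protozoa, were low. Tlr11 had 6.48 ± 4.82 FPKM in FFC and 5.59 ± 5.19 FPKM in FF, and Tlr12 had 5.47 ± 1.60 FPKM in FFC and 4.23 ± 4.93 FPKM in FF (SD, n = 4 each). Among 9 measured partners and trafficking factors, 8 were higher (median 0.43). Ly96, the MD-2 subunit that holds lipopolysaccharide on Tlr4, had 136 ± 86.3 FPKM in FFC and 88.1 ± 103 FPKM in FF, and Ly86, the MD-1 partner of the receptor relative Cd180, had 873 ± 115 FPKM in FFC and 639 ± 333 FPKM in FF (SD, n = 4 each). Unc93b1, which carries the endosomal receptors to their compartment, had values in 5 libraries only and was not tested. It had 211 and 336 FPKM in FFC 1 and FFC 3, against 64.1, 281 and 106 FPKM in FF 2, FF 3 and FF 4.

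Adaptors, kinases and inhibitors downstream of the receptors gave medians of 1.04, 0.40 and 0.76, with 5 of 5, 11 of 14 and 6 of 7 higher in FFC. Without Sarm1 and Tab1 the adaptors had a median of 1.30 (4 of 4 higher) and the kinases one of 0.35 (10 of 13). Ticam1, the adaptor of Tlr3, had 7.66, 12.03, 17.5 and 32.1 FPKM in FFC, against 0.413, 2.83, 2.43 and 26.2 FPKM in FF. FF 4, the lowest library for Tlr3, was the 1 FF library with much Ticam1, and the log2 difference was 1.77 ± 0.94 (limma adjusted p = 0.759). Pik3ap1, an adaptor that links the receptors to PI3-kinase, had 48.9 ± 16.6 FPKM in FFC and 24.1 ± 12.1 FPKM in FF. Irak2, a kinase of the Myd88 complex, had 75.3 ± 16.5 FPKM in FFC and 42.7 ± 12.9 FPKM in FF, and Chuk, the IKK-alpha kinase, 61.8 ± 20.3 FPKM in FFC and 30.0 ± 7.88 FPKM in FF (SD, n = 4 each). Both were among the 5 without overlap, with limma adjusted p = 0.759 for each. Peli1, a ubiquitin ligase that was listed with the inhibitors, had 22.2 ± 12.5 FPKM in FFC and 10.1 ± 5.74 FPKM in FF, and the MAP kinase phosphatase Dusp1 135 ± 80.8 FPKM in FFC and 58.1 ± 66.0 FPKM in FF (SD, n = 4 each).

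At the end of the pathway the medians were 0.84 for transcription factors (6 of 7 higher) and 1.43 for targets that Toll-like receptors are known to induce (10 of 10 higher). Among these 10 targets Irg1 is listed at 0 in all FF libraries, Ifnb1 in 7 of 8 libraries, and the direction of both and of Il6 was fixed by the filter on low values. Without those genes the median of the remaining 7 was 1.52, all of them higher in FFC. Another 3 listed targets were too low to be tested, with a higher FFC mean for Il12b and Ptgs2 and a lower one for Nos2 (0.0197 FPKM in FFC and 0.0883 FPKM in FF). Nfkb1, which gives the p50 subunit of NF-kB, had 48.6, 27.2, 37.6 and 68.2 FPKM in FFC, against 16.9, 10.7, 44.2 and 4.75 FPKM in FF. FF 3 alone reached the FFC range (limma adjusted p = 0.759). Irf7, a factor of interferon induction, had 11.6 ± 5.23 FPKM in FFC and 7.30 ± 11.2 FPKM in FF (SD, n = 4 each). The cytokine Tnf had 12.5, 17.0, 16.9 and 12.1 FPKM in FFC, against 0.999, 0, 6.87 and 1.12 FPKM in FF (FF 2 being listed at 0). The chemokine Ccl4 had 57.1, 27.1, 87.3 and 46.9 FPKM in FFC, against 1.87, 0.697, 11.3 and 0 FPKM in FF (FF 4 being listed at 0). In both the genotypes did not overlap, with limma adjusted p = 0.651 for Tnf and 0.444 for Ccl4. Induced by Toll-like receptors though they can be, both genes answer to many other signals.

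**Figure D5:**
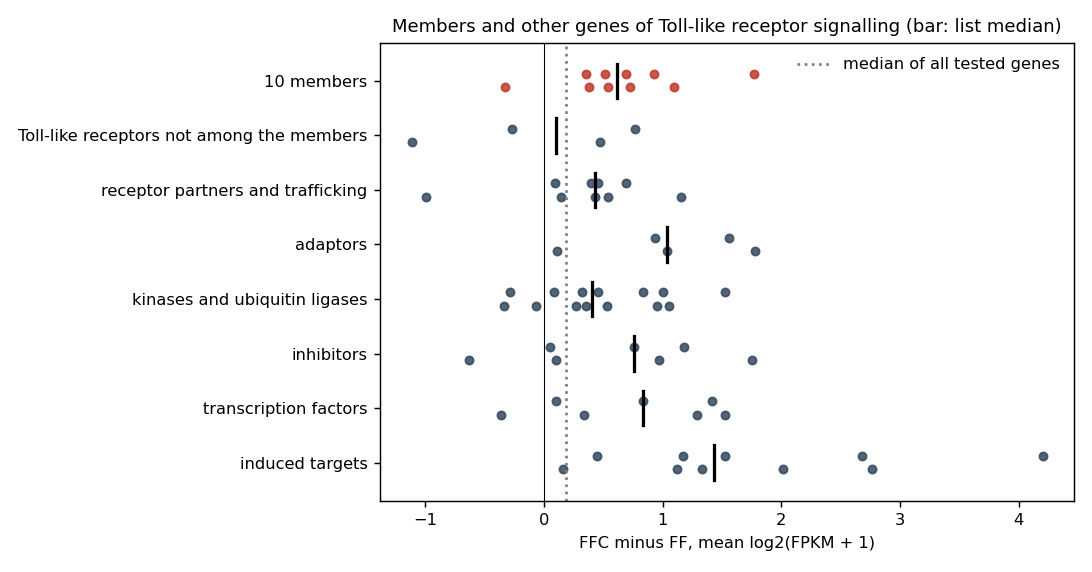
Difference of mean log2(FPKM + 1), FFC minus FF (horizontal axis), of each tested gene by its place in the pathway, with the 10 members at the top and black bars at list medians. Induced targets have the highest list median at 1.43, and the dotted line marks the median of all tested genes at 0.19.

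Marker genes of other cell types were not called between the genotypes. Of 10 microglial marker genes 8 had a higher mean in FFC (median 0.50), and their summed FPKM was 5052 to 9701 in FFC against 1936 to 7197 in FF, lowest in FF 2. Neutrophils also express Tlr2, Tlr4 and Cd14, and their 6 tested markers had a median of -1.71, with summed FPKM of 4.33 to 943 in FFC against 186 to 2785 in FF. The neutrophil marker S100a8 was at 0.79, 278, 337 and 0 FPKM in FFC and at 975, 133, 218 and 52.9 FPKM in FF, and Ly6g was at 16.8, 132 and 60.8 FPKM in FFC 2 to FFC 4 and listed at 0 in FFC 1 and in all FF libraries. Border-associated macrophages, which are rich in Cd14, had 0 of 5 markers higher (median -0.75; summed 97.5 to 956 FPKM in FFC against 363 to 1041 FPKM in FF). Cross-presenting dendritic cells are known for Tlr3. Of their markers, Xcr1 was at 0.038 to 0.32 FPKM in FFC and 0.099 to 0.94 FPKM in FF, and Clec9a had 0.065, 13.01, 66.9 and 5.77 FPKM in FFC, against 0.507, 1.72, 10.5 and 0.312 FPKM in FF (log2 difference 1.70). The broader dendritic and microglial activation marker Itgax had 55.7, 34.7, 56.4 and 10.8 FPKM in FFC, against 20.4, 1.73, 16.9 and 5.21 FPKM in FF (1.93). The dendritic markers Zbtb46 and Flt3 went the other way. Zbtb46 had a mean of 0.94 FPKM in FFC and 9.33 FPKM in FF (-2.10), and Flt3 0.27 FPKM in FFC and 2.46 FPKM in FF (-1.07). Both averaged under 1 FPKM in FFC and entered the test only through their FF values. The 5 tested dendritic markers had a median of 0.40 (3 higher; summed 68.9 to 167 FPKM in FFC against 30.0 to 104 FPKM in FF), and 4 B cell markers one of -0.29 (1 higher; summed 25.5 to 80.7 FPKM in FFC against 6.64 to 83.8 FPKM in FF). The medians of the other lists were 0.02 for monocytes (2 of 4 higher), -0.57 for T and NK cells (1 of 6), 0.18 for astrocytes (3 of 5), 0.80 for the oligodendrocyte lineage (3 of 3) and -0.99 for endothelial and mural cells (0 of 4), with 0 markers called in any list. Apart from what these values show, the part of other cells in the receptor levels was not tested.

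Myd88 was the member with the widest spread over the 8 libraries (SD of 1.40 on the log2 scale). Among 8154 genes averaging 5 FPKM or more, without pseudogenes, predicted genes and small RNA genes, its nearest profile was that of Bin2, a membrane-shaping protein of leukocytes, at a root mean square distance of 0.46 between centred log2(FPKM + 1) profiles. For the other 9 members the nearest gene lay at 0.14 to 0.32. Within the family Tlr2 and Tlr9 were the closest pair, at 0.25. All these distances rest on the same 8 libraries and share their differences in depth.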

How the data were processed

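RNA from flow-sorted optic nerve microglia was amplified as cDNA from small inputs and read from both ends on an Illumina HiSeq, per the labels' protocols. The authors deposited FPKM values as 1 table of 37447 genes by 8 libraries; 447 genes had a missing value and were left out. The submitters' processing notes name Cufflinks 2.0.2, Bowtie2 2.0.0, TopHat2 2.0.4 and CASAVA 1.8.2, and the build mm9. Annotation and settings are not stated in them. FPKM holds no counts, so no counting interval can be given, and an exact 0 can be a failed estimate. Gene starts in the table count from 0 (21397 gene lengths then equal those of GENCODE M21, against 419 otherwise) and are printed counted from 1.

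Groups follow the labels. Genotype was tested on log2(FPKM + 1) for 17753 genes averaging 1 FPKM or more, with limma 3.58.1 in R 4.3.3 (empirical Bayes with trend, two-sided, Benjamini-Hochberg over all genes, threshold 0.05). The model for sex included genotype, and that for the interaction included both. Single values had an exact permutation test over 70 arrangements. The limma script was tested on simulated data. Relative depth is the most frequent ratio between libraries among values under 0.3 FPKM, and pairwise ratios were additive within 0.021 on the log2 scale. The other steps used scipy 1.17.1, pandas 2.3.3, numpy 2.4.6 and matplotlib 3.10.9 in Python 3.11.15. Promoters are RefSeq's (GRCm38.p6), and no mm9 genome was used here.

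The members and gene lists were chosen with earlier results of these data known. The text names all members, from each pathway list the 2 tested genes with the smallest unadjusted p, and Tlr5, Tlr8, Tlr11, Tlr12, Ly96 and Unc93b1, besides genes said to be named after their values were seen. Alternatives were leaving out each library, a term for replicate number, month or sex, array weights, robust variances, equal-sum, quantile or upper-quartile scaling, a minimum mean of 5 FPKM or none, and pseudocounts of 5 and 0.1. Leaving out FF 2 and FF 4 and the chemosensory share as a term were added after seeing the data. Acod1 appears under its older symbol Irg1, and Irf8 was not analysed here.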

Additional observations from a re-analysis of the deposited data

Results flagged for a closer look

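In 52 groups of 4 libraries (each genotype for the 10 members and 16 named pathway genes), 4 held a library far from its 3 neighbours by Dixon's criterion, where chance gives about 1 in 20. Tlr13 had 251 FPKM in FFC 3, above the other FFC libraries at 142 to 154 FPKM, and 102 FPKM in FF 1, above the other FF libraries at 71.2 to 72.4 FPKM. Dusp1 had 20.8 FPKM in FFC 1, below 149 to 211 FPKM in the other FFC libraries. Peli1 had 40.8 FPKM in FFC 3, above 14.3 to 16.8 FPKM in the other FFC libraries. FFC 3 was thus the high library for both Tlr13 and Peli1, and the cause was not tested.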

How the results depend on the processing

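In all 22 other settings 0 of 10 members and 0 pathway genes were called with limma, and the differences of Tlr1, Tlr3, Tlr7, Tlr13 and Myd88 stayed positive. That of Tlr6 lay between -0.70 and -0.0014, the last without FF 1. Of all genes, 1 was called without FF 1 and 1 without FFC 4 (range 0 to 1 over the single omissions). Differences that changed sign were, without FF 2 and FF 4, Tlr2 (-0.20), Tlr4 (-0.086), Tlr9 (-0.088) and Cd14 (-0.23); with the chemosensory share as a term, Tlr2 (-0.68), Tlr4 (-0.45), Tlr9 (-0.47) and Cd14 (-0.62); with month as a term, Tlr4 (-0.048); without FF 2, Tlr2 (-0.052, in a range up to 0.80 over the single omissions); and without FFC 4, Cd14 (-0.17, in a range up to 0.82). The cause was not tested. The median of the members was 0.062 with the chemosensory share (all genes 0.02), 0.39 to 0.82 over the single omissions, and 0.38 to 0.45 after rescaling of libraries, when the median of all genes was 0.03 to 0.04. Without overlap upward were 2 to 3 members over the single omissions. Tlr3 and Tlr13 were among them in each, which was fixed in advance, since an omission cannot undo a full separation. Tlr1 was added without FFC 1 (5.75% of all genes in that setting), and Tlr7 without FFC 3 (4.26%) or without FF 2 (4.48%). Depth limits mainly FF 2, at 0.208 of the depth of FF 1.

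With replicate number as a block, 0 members, 0 pathway genes and 0 genes in all were called, and the members' median stayed at 0.61. Libraries with the same number correlated at -0.05 to 0.03 in their deviations, and those with different numbers at -0.12 to 0.12. These values show no sign that the numbers pair libraries, but cannot exclude it. The sexes could not be fitted with that block, since each number holds 1 sex.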
